A study of Mus musculus with 6 samples.

Results

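The 42 genes described here encode proteins that make ribosomes in the nucleolus, and were taken as the rows of the deposited count table that carry one of 42 gene symbols chosen for this role. All 42 were among the 55487 genes listed, and all 42 had enough counts to be tested. The libraries were mRNA-seq libraries of acute lymphoblastic leukaemia cells from mouse bone marrow, sorted for GFP and for B220, a surface protein of B-lineage cells. The 6 libraries form 2 groups of 3, 1 with miR-182 intact (WT, numbered 1, 3 and 4) and 1 with this microRNA knocked out (KO, numbered 2, 3 and 4), all labelled day 0, with 17704382 to 29237035 counts each. The Mir182 row of the table held 0 counts in every library, so the knockout cannot be checked from it. The series models B-ALL with BCR-ABL (P190) and T-ALL with Notch after transplantation of marrow cells in mice aged 6 to 8 weeks, and these 6 libraries come from the B220 sort. The strain, the way the knockout was made and whether a library is 1 mouse or a pool are not stated in the labels. The p-values therefore measure the spread between these libraries, which may be in part technical.

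Ribosomal RNA is transcribed by RNA polymerase I, and its precursor is then cut, modified and folded while ribosomal proteins are added. Small nucleolar ribonucleoproteins (snoRNPs) guide the chemical modification of the precursor, the small-subunit processome builds the 40S subunit, and a further set of factors builds the 60S subunit. In blood cells the programme is known to be run at a high rate in growing, dividing cells, and the transcription factor MYC is a known activator of many of its genes.

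Ribosome biogenesis genes were higher in the KO libraries. Of the 42, 37 (88.1%) rose and 0 fell at a Benjamini-Hochberg adjusted p below 0.05 in edgeR's quasi-likelihood test, where 23.9% of the 14481 genes tested rose and 28.5% fell. All 3 KO libraries lay above all 3 WT libraries for 37 of the 42 genes, against 30.8% of all genes tested, and below them for 1 gene, Noc3l, against 33.2%. The median log2 fold change of the 42 was 0.72, beside -0.00147 for all genes tested, and the 42 ranged from -0.20 for Noc3l to 1.16 for Rrs1. Increases were moderate: 28 of the 42 were higher by 1.5-fold or more, and Rrs1 and Gnl3 by 2-fold or more. In the authors' deposited table, made with DESeq2, 38 of the 42 were higher and 0 were lower at a false discovery rate below 0.05. The share of all genes called in that table was not counted. In the DESeq2 fit made here, 38 of the 42 rose and 0 fell, beside 24.4% and 27.9% of all genes tested.

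Taken as a sum, the 42 genes held 0.505% (0.502 to 0.509), 0.709% (0.706 to 0.712) and 0.562% (0.559 to 0.566) of all counts in WT replicates 1, 3 and 4. The corresponding shares were 0.958% (0.954 to 0.962), 1.022% (1.018 to 1.026) and 0.955% (0.952 to 0.959) in KO replicates 2, 3 and 4, with exact 95% binomial intervals that cover counting error only. The lowest KO share was thus above the highest WT share. The WT libraries differed more among themselves than the KO libraries, with a median coefficient of variation over the 42 genes of 18.6% in WT and 5.76% in KO. Within WT, replicate 3 was the highest library for 41 of the 42 genes and replicate 1 the lowest for 38. Within KO, replicate 3 was the highest for 35. Against WT replicate 3 alone, KO replicates 2, 3 and 4 were higher in 37, 39 and 38 of the 42 genes. The shares of all genes tested that lay above this 1 library were not counted.

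**Figure D1:**
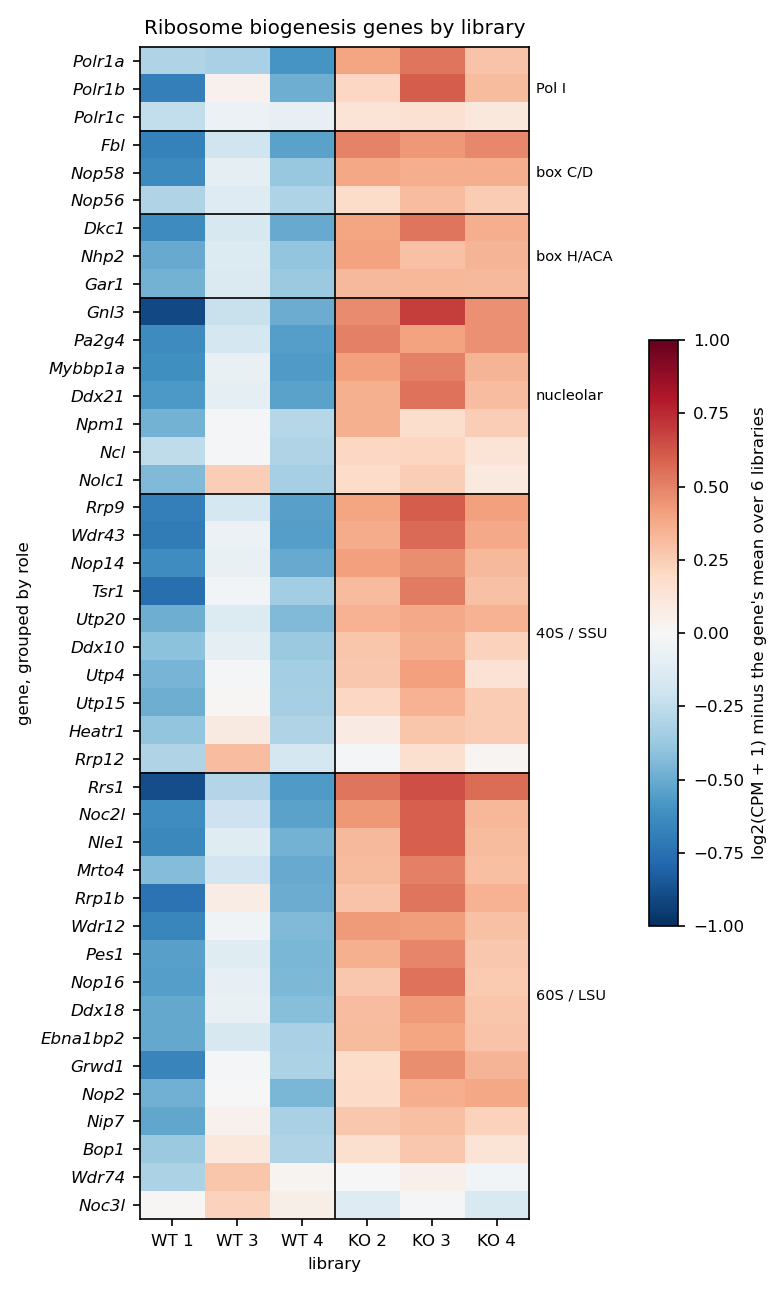
Level of each of the 42 genes (rows, grouped by role) in each library (columns) as log2(CPM + 1) minus the gene's mean over the 6 libraries, with red above and blue below that mean. The 3 KO columns are red in nearly every row, WT replicate 1 is the bluest column, WT replicate 3 is the palest of the WT columns, and Rrp12, Wdr74 and Noc3l depart from the pattern.

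Markers of another cell type moved with this difference. In CPM, the count relative to the library total after scaling by TMM factors, the summed level of 17 neutrophil markers was 41278, 16917 and 29717 CPM in WT replicates 1, 3 and 4 and 1396, 3309 and 7034 CPM in KO replicates 2, 3 and 4, and all 17 were lower in KO. WT replicate 3, with the lowest neutrophil level of the WT libraries, was also the WT library with the highest ribosome biogenesis level. Within KO the order differed: replicate 2 had the lowest neutrophil level but was the highest KO library for 6 of the 42 genes, against 35 for replicate 3. Of 12 monocyte markers 9 fell, and all 5 that could be tested of 10 T and NK cell markers fell. With the neutrophil level of each library as a covariate, 0 of the 42 genes passed in either direction, their median log2 fold change was 0.44 and 38 of the 42 stayed above 0. In that fit their median SE rose from 0.133 to 0.293, 1.42% of all genes were called higher in KO, and genotype itself accounted for 81.7% of the variance of the covariate, so that covariate and genotype largely overlap. With WT replicate 3, the WT library lowest in neutrophil markers, as the only WT library, 24 of the 42 rose (11.3% of all genes) and Noc3l fell (adjusted p = 0.0472), with a median of 0.435. For the sorted cell type itself, all 10 B-lineage markers were present at 281 CPM or more on average in both genotypes. Their summed level was 7500.0, 7724 and 7322 CPM in WT and 7946, 7825 and 6975 CPM in KO. Of the 10, 3 were higher in KO (among them Pax5 at 0.59 and Ebf1 at 0.61 in log2 fold change) and 4 did not pass. The 3 lower were Ptprc (-1.02), whose products include B220, Blnk (-0.91) and Cd24a (-0.43). Ptprc, counted as a whole gene, stood at 779, 411 and 522 CPM in WT replicates 1, 3 and 4. In KO replicates 2, 3 and 4 it stood at 265, 297 and 281 CPM. Its order over libraries was that of the neutrophil level in WT but not in KO. Blnk lies on chromosome 19, where 61.9% of the tested genes fell and the median log2 fold change was -0.50, above that of Blnk. The causes of these 3 falls were not tested. Fewer cells of a type and less RNA per cell cannot be told apart in such bulk libraries, and the part of other cells in the difference of the 42 genes was not tested beyond these fits.

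**Figure D2:**
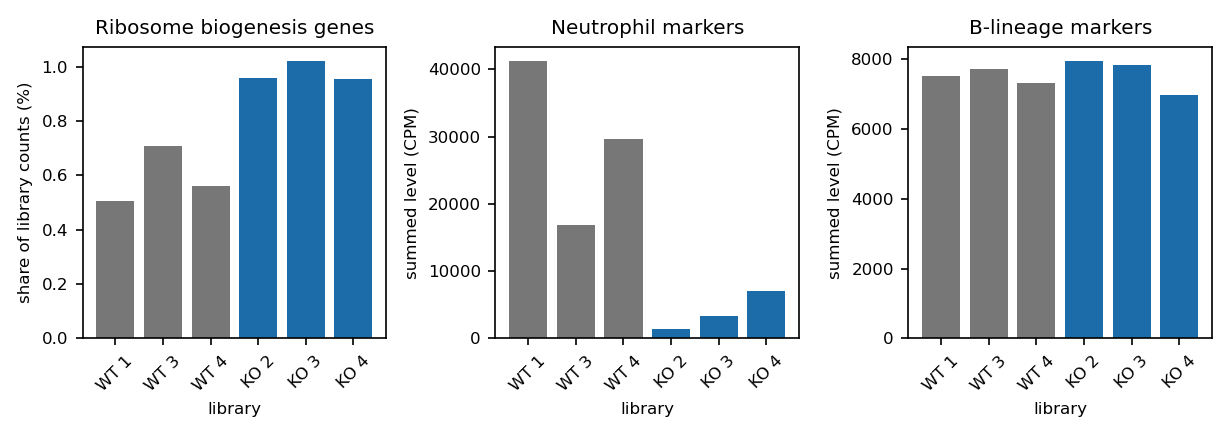
Bars give, for each library, the share of all counts held by the 42 genes (left, %), the summed level of 17 neutrophil markers (middle, CPM) and the summed level of 10 B-lineage markers (right, CPM), with WT in grey and KO in blue. The share of the 42 genes is above 0.95% in each KO library and at most 0.709% in WT, while the neutrophil sum is highest in WT replicate 1 and the B-lineage sum lies between 6975 and 7946 CPM.

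Levels of DNA replication genes did not follow the same order of libraries. The summed level of 18 replication genes was 3199.6, 3846 and 3783 CPM in WT and 4729, 3577 and 4879 CPM in KO, so that KO replicate 3, the highest library for most of the 42 genes, was below WT replicates 3 and 4 in replication genes. Of the 18, 7 rose (38.9%, against 23.9% of all genes tested) and 11 did not pass, with a median of 0.40. With the replication level as a covariate, 24 of the 42 ribosome biogenesis genes were higher in KO (11.4% of all genes) and their median was 0.67. In that fit their median SE rose from 0.133 to 0.181. Genotype itself accounted for 43.4% of the variance of the covariate, so that covariate and genotype overlap in part. The part of replication in the difference of the 42 genes was not tested beyond this fit.

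Promoter sequences were examined for CACGTG, the E-box that MYC and other helix-loop-helix factors are known to bind. RefSeq windows on GRCm38.p6, from 250 bases before to 50 bases after an annotated start, were given for 37 of the 42 genes, in 41 windows. CACGTG, which reads the same on both strands, stood in 9 of the 41 windows (22.0%), against 9.89% of the 12878 windows of all tested genes. In 8 of the 9 it began within the 50 bases after the start, so that 19.5% of the windows of the 42 genes held it there, against 1.55% of those of all tested genes. In the bases before the start the order was the reverse, with 2.44% of the windows of the 42 genes and 8.22% of those of all tested genes. Other ribosome biogenesis genes held it in 15.6% of 135 windows, with 8.89% before and 6.67% after the start. Of the 41 windows of the 42 genes, 33 had their first 30 bases after the start on an annotated transcript of the gene. The windows of Mybbp1a, Utp20 and Nop2 did not, so the place of their E-box relative to the start depends on the annotation used. The 50 bases after the start were set apart, and the sites there chosen for display, after the matches had been seen. Those 8 sites are shown 5′ to 3′ on the strand of the gene, with up to 10 bases on each side (the window ends earlier for Mybbp1a and Utp20) and the E-box in capitals, in order of log2 fold change:

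Wdr43 (chr17:71616222-71616247, plus strand): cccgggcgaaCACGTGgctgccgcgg
Nle1 (chr11:82908357-82908382, minus strand): ggttctcctcCACGTGgggacgcagg
Mybbp1a (chr11:72441357-72441376, plus strand): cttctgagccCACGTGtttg
Pes1 (chr11:3963967-3963992, plus strand): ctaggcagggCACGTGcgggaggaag
Tsr1 (chr11:74898094-74898119, plus strand): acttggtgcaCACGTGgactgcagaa
Utp20 (chr10:88826765-88826787, minus strand): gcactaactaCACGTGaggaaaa
Grwd1 (chr7:45830740-45830765, minus strand): gccggagtcgCACGTGtgaaaccgga
Utp4 (chr8:106893645-106893670, plus strand): cgcaagcgcgCACGTGgggccggggc

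The ninth lies before the start, with its first base 60 bases upstream in Nop2, and is shown in 60 bases of promoter together with a match to CCGGAAG, the core bound by ETS factors, both in capitals:

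Nop2 (chr6:125131796-125131855, plus strand): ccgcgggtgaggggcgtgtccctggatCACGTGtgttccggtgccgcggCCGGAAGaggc

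CCGGAAG or its reverse complement was present in 39.0% of the windows of the 42 genes, in 39.3% of those of other ribosome biogenesis genes and in 17.2% of those of all tested genes. All 9 genes with the E-box rose, with log2 fold changes from 0.55 to 0.86 and a median of 0.73, but 25 of the 28 genes whose windows lacked it rose as well, with a median of 0.71. A match is a description of these letters and shows no binding. The mRNA of MYC, not the protein, was measured in the same libraries. Myc stood at 83.6, 156 and 114 CPM in WT replicates 1, 3 and 4, against 214, 238 and 227 CPM across KO replicates 2, 3 and 4. It rose by 0.94 (± 0.21 SE, with adjusted p = 0.00873) on the log2 scale. Mycn, a close relative, fell, with 169, 280.3 and 219 CPM in the WT libraries against 143, 123 and 90.6 CPM in the KO libraries, for a KO-over-WT log2 fold change of -0.91 (± 0.22 SE, with adjusted p = 0.0126). Mycn lies on chromosome 12, where 49.2% of the 581 tested genes fell, with a median log2 fold change of -0.38. Mycl was low throughout, at 1.58 ± 0.461 CPM (SD, n = 3) for WT and 1.34 ± 0.177 CPM for KO, and did not pass (-0.23, adjusted p = 0.509). Within WT, Myc and Mycn alike were highest in replicate 3 and lowest in replicate 1.

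RNA polymerase I subunits rose in all 3 cases. Polr1a, the largest subunit of the enzyme, stood at 112, 110.0 and 91.6 CPM in WT replicates 1, 3 and 4, against 182, 201 and 168 CPM across KO replicates 2, 3 and 4, for a KO-over-WT log2 fold change of 0.81 (± 0.11 SE, with adjusted p = 0.00127). No KO library was near the WT range. Polr1b, the second-largest subunit, rose by 0.74 (± 0.20 SE, with adjusted p = 0.0195). Polr1c, a subunit shared with RNA polymerase III, moved least of the 3, with 35.9, 40.96 and 40.3 CPM in the WT libraries against 47.2, 47.8 and 46.1 CPM in the KO libraries, and its small difference of 0.27 (± 0.08 SE, with adjusted p = 0.0261) still left no overlap between genotypes.

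Core proteins of the snoRNPs rose in 6 of 6 cases among the 42. The core proteins outside the 42 are Snu13 of box C/D, which rose (0.44, adjusted p = 0.0246), and Nop10 of box H/ACA, which did not pass. Fbl (fibrillarin), the methyltransferase of box C/D snoRNPs that methylates the ribose of rRNA, stood at 151, 210.2 and 167 CPM in WT replicates 1, 3 and 4, against 341, 328 and 339 CPM across KO replicates 2, 3 and 4, for a KO-over-WT log2 fold change of 0.93 (± 0.12 SE, with adjusted p = 0.00139). The KO libraries were nearly equal for this gene and all lay far above WT replicate 3. Its partners Nop58 (0.73) and Nop56 (0.50) form the scaffold of the same particle, and Nop56 moved least, with 218, 246 and 217 CPM in the WT libraries against 306, 333 and 322 CPM in the KO libraries (adjusted p = 0.00282). Dkc1 (dyskerin), the pseudouridine synthase of box H/ACA snoRNPs, stood at 91.5, 127 and 99.9 CPM in WT replicates 1, 3 and 4, against 188, 207 and 184 CPM across KO replicates 2, 3 and 4, for a KO-over-WT log2 fold change of 0.86 (± 0.13 SE, with adjusted p = 0.00223). Its partners Nhp2 (0.69) and Gar1 (0.66) rose too, while Nop10, a core protein of that particle outside the 42, did not pass, at 38.7, 53.6 and 41.5 CPM in the WT libraries against 58.3, 50.6 and 53.9 CPM in the KO libraries and a log2 fold change of 0.28 (± 0.13 SE, with adjusted p = 0.114). Gar1 was almost constant within KO, with 48.1, 60.7 and 51.8 CPM in the WT libraries against 84.3, 84.9 and 84.4 CPM in the KO libraries (adjusted p = 0.002).

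Abundant and regulatory nucleolar proteins rose in 6 of 7 cases. Gnl3 (nucleostemin), a nucleolar GTPase of proliferating cells, stood at 73.8, 119 and 98.3 CPM in WT replicates 1, 3 and 4, against 194, 225 and 191 CPM across KO replicates 2, 3 and 4, for a KO-over-WT log2 fold change of 1.06 (± 0.17 SE, with adjusted p = 0.00278). Pa2g4 (0.90), a growth-regulated factor found on pre-ribosomes, Mybbp1a (0.82), a nucleolar MYB-binding protein, and Ddx21 (0.79), an RNA helicase that acts in rRNA transcription and processing, rose in the same range. Npm1 (nucleophosmin), a histone and ribosome chaperone, stood at 713, 973 and 809 CPM in WT replicates 1, 3 and 4, against 1266, 1117 and 1174 CPM across KO replicates 2, 3 and 4, for a KO-over-WT log2 fold change of 0.51 (± 0.13 SE, with adjusted p = 0.0147). Ncl (nucleolin), which binds the rRNA precursor, differed less, with 1263, 1493 and 1218 CPM in the WT libraries against 1737, 1749.9 and 1657 CPM in the KO libraries and a log2 fold change of 0.37 (± 0.11 SE, with adjusted p = 0.0233). Neither gene's genotype ranges overlapped. Nolc1, a chaperone of snoRNPs, did not pass: it stood at 199, 322 and 215 CPM in the WT libraries against 308, 323 and 290.5 CPM in the KO libraries, where WT replicate 3 lay inside the KO range, with 0.32 (± 0.18 SE, with adjusted p = 0.165).

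Genes of the small-subunit processome and of 40S maturation rose in 9 of 10 cases. Rrp9, a protein of the U3 snoRNP, stood at 28.1, 40.3 and 31.1 CPM in WT replicates 1, 3 and 4, against 60.4, 70.3 and 61.3 CPM across KO replicates 2, 3 and 4, for a KO-over-WT log2 fold change of 0.95 (± 0.14 SE, with adjusted p = 0.00228). Wdr43 (0.86), Utp4 (0.55), Utp15 (0.53) and Heatr1 (0.40) belong to the subcomplex that links transcription of rRNA to its processing. Of these Heatr1 alone had overlapping genotypes. Nop14 (0.79), Utp20 (0.71), the helicase Ddx10 (0.58) and Tsr1 (0.73), which acts late on the pre-40S particle, made up the rest of the genes that rose. Rrp12, a factor of pre-ribosome export, did not pass: it stood at 53.2, 81.6 and 58.0 CPM in the WT libraries against 64.9, 73.7 and 66.7 CPM in the KO libraries, with WT replicate 3 above all KO libraries, and had a log2 fold change of 0.09 (± 0.16 SE, with adjusted p = 0.665).

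Factors of 60S assembly rose in 13 of 16 cases. Rrs1, which helps to bring the 5S particle into the pre-60S subunit, differed most of all 42 genes, at 47.0, 71.3 and 58.7 CPM in WT replicates 1, 3 and 4, against 128, 137 and 129.7 CPM across KO replicates 2, 3 and 4, for a KO-over-WT log2 fold change of 1.16 (± 0.15 SE, with adjusted p = 0.00112). Pes1 (0.74), Wdr12 (0.75) and Bop1 form 1 complex, PeBoW, that is needed for maturation of the large-subunit rRNA. The third of them did not pass: Bop1 stood at 99.8, 139 and 105 CPM in the WT libraries against 145, 156 and 143 CPM in the KO libraries, with no overlap and a log2 fold change of 0.37 (± 0.13 SE, with adjusted p = 0.0505), and it passed under 12 of 20 alternatives, with adjusted p from 0.000885 to 0.921 over all 20. Noc2l (0.90), Nle1 (0.83), Mrto4 (0.76), Rrp1b (0.75), Nop16 (0.73), the helicase Ddx18 (0.67), Ebna1bp2 (0.66), Grwd1 (0.66), the rRNA cytosine methyltransferase Nop2 (0.62) and Nip7 (0.53) also rose. Wdr74 stood at 36.7, 55.9 and 46.9 CPM in the WT libraries against 45.9, 47.6 and 45.1 CPM in the KO libraries with a log2 fold change of -0.01 (± 0.15 SE, with adjusted p = 0.956), a value whose sign turned with the scaling, to 0.10 with library totals only. Noc3l stood at 60.6, 70.7 and 62.9 CPM in the WT libraries against 55.0, 59.5 and 54.2 CPM in the KO libraries, with a log2 fold change of -0.20 (± 0.09 SE, with adjusted p = 0.0818). It was the only 1 of the 42 with every KO library below every WT library.

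**Figure D3:**
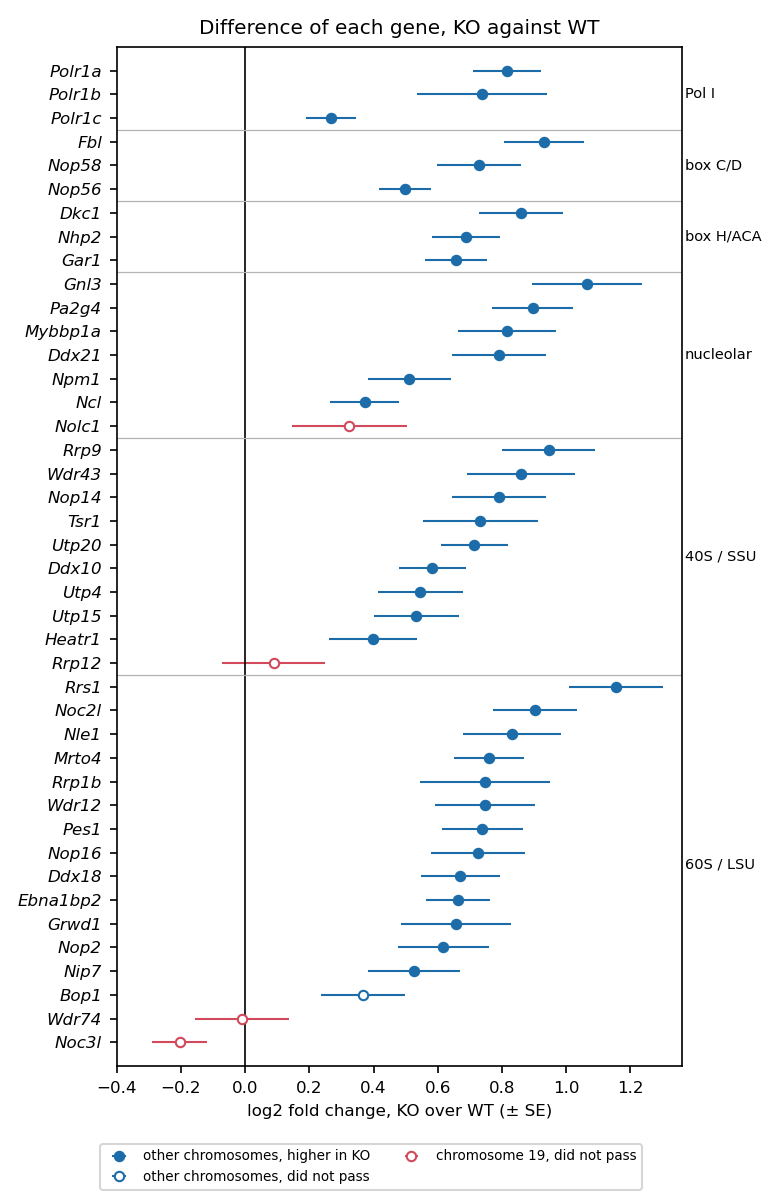
Log2 fold change of KO over WT (points) with its SE (bars) for each of the 42 genes, grouped by role. Filled points passed at an adjusted p below 0.05 and open points did not, and genes on chromosome 19, in red, are 4 of the 5 lowest values, the other being Polr1c at 0.27.

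The calls varied with the libraries used. Of the 37 genes that rose, 27 rose in each of the 6 fits that leave out 1 library. The share of all genes called higher moved as well, from 23.9% with all 6 libraries to between 16.0% and 26.0% in these fits. Without WT replicate 4, 27 rose (16.0% of all genes), and the calls of Grwd1, Heatr1, Ncl, Nip7, Npm1, Polr1b, Polr1c, Rrp1b, Utp15 and Utp4 were lost (adjusted p 0.0513 to 0.14). Without KO replicate 3, 30 rose (18.9% of all genes), and Grwd1, Heatr1, Ncl, Nip7, Polr1b, Polr1c and Rrp1b were lost (0.0591 to 0.121). Heatr1, Ncl and Polr1c were lost without WT replicate 1 (0.0573 to 0.105) and without KO replicate 2 (0.0541 to 0.065), and Heatr1 without KO replicate 4 (0.105). Without WT replicate 3, 40 rose (26.0% of all genes), with Bop1 (0.00149), Nolc1 (0.00155) and Rrp12 (0.0256) among them.

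Most of the genes that did not rise lay on 1 chromosome. Of the 42, 4 are on chromosome 19, namely Nolc1, Rrp12, Wdr74 and Noc3l, and 0 of these 4 rose, while 37 of the 38 on other chromosomes did. This was noticed after the values were seen. Chromosome 19 as a whole was lower in KO: over its 504 tested genes the median log2 fold change was -0.50, the lowest of the 20 chromosomes compared, and 61.9% fell while 3.57% rose. Chromosome 12 came next at -0.38 over 581 genes and held none of the 42, and the other 18 chromosomes had medians from -0.03 to 0.09. Set against the median of their own chromosome, Nolc1, Rrp12, Wdr74 and Noc3l stood 0.83, 0.59, 0.49 and 0.30 higher in log2 fold change. The other 38 stood between 0.24 (Polr1c) and 1.14 (Rrs1) above theirs. What lowers chromosomes 12 and 19 was not tested.

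**Figure D4:**
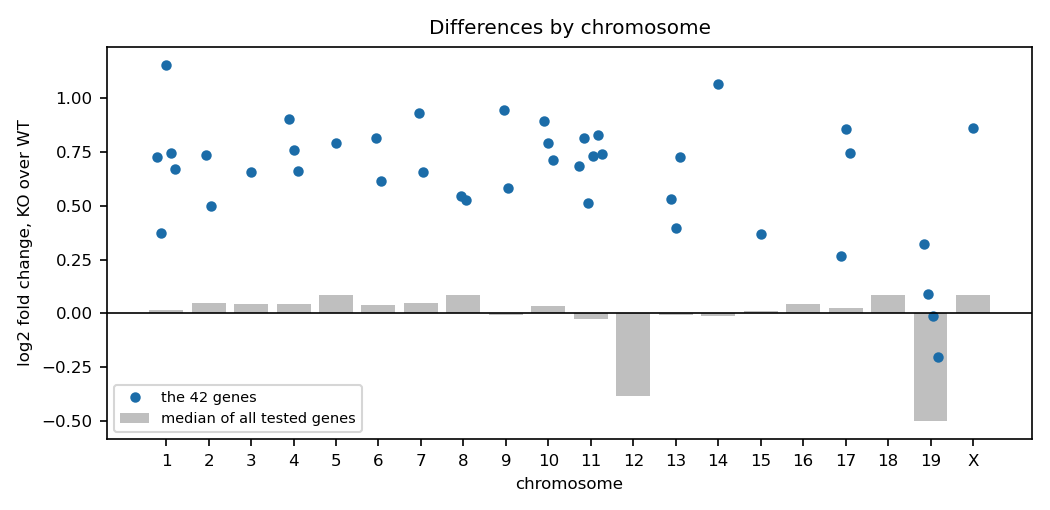
Log2 fold change of KO over WT by chromosome, with grey bars for the median of all tested genes on each chromosome and blue points for the 42 genes. The bars of chromosomes 12 and 19 reach -0.38 and -0.50 while the others lie near 0, and the 4 points on chromosome 19 lie from -0.20 to 0.32.

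Other genes of the pathway, from a list of 141 drawn up by role with earlier results of these data known, were higher in KO as well. Among the 139 that could be tested, 98 rose (70.5%, against 23.9% of all genes tested) and 4 fell, where 28.5% of all genes fell. The median log2 fold change was 0.44, and for 37 the difference did not pass. The 40S factors outside the 42 rose in 33 of 46 cases and fell in 1, and the largest increases were those of Utp14a, by 1.03 (± 0.07 SE, with adjusted p = 0.000119), and Nol6, by 1.03 (± 0.13 SE, with adjusted p = 0.00103), both parts of the small-subunit processome. The 60S factors rose in 40 of 49 cases and fell in 1. Ppan, a nucleolar assembly factor, differed most of them, at 76.1 ± 15.4 CPM (SD, n = 3) for WT and 175 ± 15.5 CPM for KO, which gave 1.20 (± 0.15 SE, with adjusted p = 0.00109) on the log2 scale, followed by the export adaptor Nmd3 (0.92). Genes of the nuclear exosome and of other factors that trim rRNA, Xrn2 among the latter, rose in 11 of 13 cases, with Mphosph6 at 1.13 and Dis3 at 0.72. Other snoRNP proteins and assembly factors rose in 7 of 10 cases, led by Nufip1 (0.91) and Znhit6 (0.75). Polymerase I subunits and initiation factors outside the 42 were mixed, with 6 of 12 higher and 2 lower. Polr1g (0.75), listed as Cd3eap in the files, and Taf1d (0.67) rose most, while Ttf1 (-0.40), a termination factor, and Taf1b (-0.23), a subunit of the promoter selectivity factor, fell. Of 9 tested non-coding host genes of snoRNAs, Snhg15 (0.59, adjusted p = 0.0332) rose and 8 did not pass, with a median of -0.03. So few genes, with 11.1% called higher, cannot be set apart from the 23.9% of all genes tested.

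By position, of the 4 of these genes that fell, Ddx24 (-0.39), Fcf1 (-0.30) and Taf1b lie on chromosome 12, where 3 of 5 tested pathway genes fell and 0 rose. Over all 581 tested genes of that chromosome 49.2% fell and 7.75% rose, so these counts are near the share of the chromosome. On chromosome 19, 0 of 4 rose and 0 fell, with Rcl1 at 0.21, Exosc1 at 0.13, Pdcd11 at -0.01 and Snhg1 at -0.23. Off these 2 chromosomes 98 of 130 rose and 1, Ttf1, fell.

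Levels per kb of exon spanned a wide range among the 42 genes. Npm1 was highest in both genotypes, at 509 ± 80.3 CPM per kb in WT and 726 ± 46.2 CPM per kb in KO. Ncl followed in WT with 162 ± 18.0 CPM per kb in WT and 209 ± 6.11 CPM per kb in KO, and Fbl had 147 ± 25.4 CPM per kb in WT and 281 ± 6.05 CPM per kb in KO. The WT levels of Ncl and Fbl per kb differed by less than their SDs, while in KO Fbl was above Ncl per kb by more than the SDs of both. This order rests on the annotated exon lengths, 8202 bases for Ncl and 1197 for Fbl, which the SDs do not cover. Before division by length, Ncl was at 1715 CPM and Fbl at 336 CPM on average in KO. Nop56 (121 ± 8.71 CPM per kb in WT and 171 ± 7.28 CPM per kb in KO) and Pa2g4 (92.9 ± 16.3 CPM per kb in WT and 173 ± 6.37 CPM per kb in KO) came next, in that order in WT, and in KO they differed by less than their SDs. At the low end stood Utp20 (7.67 ± 1.06 CPM per kb in WT and 12.6 ± 0.148 CPM per kb in KO) and Wdr12 (5.24 ± 1.19 CPM per kb in WT and 8.81 ± 0.46 CPM per kb in KO), the latter with an annotated exon length of 10012 bases.

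Sites for the deleted microRNA were looked for in the 3′ UTRs of these genes. Mature miR-182-5p, given by RefSeq on chromosome 6 (GRCm38.p6, minus strand), is shown with its seed, bases 2 to 8, in capitals:

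mmu-miR-182-5p: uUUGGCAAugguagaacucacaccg

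The complement of the seed, TTGCCAA, occurred in the longest annotated 3′ UTR of 4 of the 42 genes (9.52%), against 11.9% of 11978 tested genes with such a UTR. The median length of these UTRs was 497.5 bases for the 42 genes and 1150 bases for the tested genes, so the shares do not compare like lengths. Npm1 (0.51), Rrp12 (0.09) and Utp15 (0.53) held 1 site each and Wdr12 (0.75) held 2, where the values are log2 fold changes. Of the 4 genes with a site 3 rose, with a median of 0.52, and of the 38 without one 34 rose, with a median of 0.73.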

How the data were processed

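RNA came from GFP and B220 positive marrow cells (1.3 ug of total RNA per library, SMARTER mRNA-Seq kit, per the labels). Unnormalized counts for each Ensembl gene on GRCm38.p6, and its exon length, were deposited, per the file headers. How reads were aligned and counted is not given in the sources used here. Library totals were 17704382 to 29237035 counts, and a count of 3, the floor for a 0, is 0.098 to 0.182 CPM. The authors' comparison table gives a log2 fold change and a false discovery rate (an adjusted p-value) from DESeq2, per the deposited statistics table. The tables named for FPKM and TPM, which hold the same values, scaled by library total and not by length, were not used.

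Counts were tested with edgeR 4.0.16 (filterByExpr, minimum count 10 and total 15; TMM factors; quasi-likelihood F test on genotype; Benjamini-Hochberg adjustment over all 14481 genes; threshold 0.05) in R 4.3.3. The SE is the log2 fold change divided by the root of F. Levels are TMM-scaled CPM, given per library or as mean ± SD of 3 libraries. limma 3.58.1 and DESeq2 1.42.0 served as alternatives, and figures used Python 3.11.15. The fit was also run on simulated counts in which far fewer genes changed than in these data, and nothing reported here rests on that run.

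The 42 genes, the lists and the alternatives were chosen with earlier results of these data known. All 42 genes are accounted for. Values per library are given for the largest and smallest change in each role, for Fbl, Ncl, Npm1, Dkc1 and Polr1a, and for each gene that did not pass. Of other pathway lists, the 2 largest rises and falls that passed are named, and further genes of those lists were chosen after their values were seen; of the promoters, the rule names Nop2 alone. Of 7 erythroid markers tested, 1 rose and 6 did not pass.

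Without strand information, reads of overlapping genes cannot be told apart: 2 of the 42 share 10% or more of their exon bases with a gene on the opposite strand, Tsr1 (32.3%, Srr) and Noc2l (20.9%, Samd11). Reads of Fbl and Mrto4 may be split with processed pseudogenes, whose counts were 3.21% and 7.16% of those of the gene. Npm1 is known to have copies under other names, which were not summed. UTRs were taken from GENCODE M21.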

Additional observations from a re-analysis of the deposited data

How the results depend on the processing

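Of the 42 ribosome biogenesis genes, 38 or 39 were higher in KO under the 10 alternatives that changed the scaling, the filter on low counts or the tool, and 27 to 40 without 1 library. Over all genes, 14.1% to 33.0% were called higher under those 10, and 16.0% to 26.0% without 1 library. The 39 came from limma-voom with quality weights, where 33.0% of all genes were higher and 34.8% lower. With the replicate block, 37 were higher (20.2% of all genes), where Polr1c lost its call and Bop1 gained one. The labels do not say that the numbers pair libraries, and numbers 3 and 4 alone are shared. The genotype difference in the block fit thus rests on replicates 3 and 4 of each genotype. WT replicate 1 and KO replicate 2 add nothing to it. The deviations of same-numbered libraries correlated at 0.05 and 0.21. The median of the 42 ran from 0.58 to 0.85 without 1 library. Under the other scalings it stayed 0.72 above that of all genes. A scaling factor moves all genes of a library alike, so this difference could hardly change and is no test of the result. Library totals alone moved the median of all genes to 0.11. They also turned the calls over all genes from 3466 higher and 4133 lower to 4542 and 3501. With the neutrophil covariate 0 of the 42 and 2 of the other pathway genes were higher, with a median of the 42 of 0.44. With the replication covariate these counts were 24 and 50. With WT replicate 3 as the only WT library, chosen after seeing the data, they were 24 and 46, with a median of 0.435 and 1 gene lower, Noc3l, which was also the 1 lower in limma-voom with quality weights. In the fit with a lone WT library, that library is assumed to vary like the others. The sign of Wdr74 turned to 3.9e-05 with RLE factors, 0.044 with upper-quartile factors, 0.097 with library totals only, 0.046 with no filter and 0.011 in limma-trend, and ran from -0.16 to 0.15 without 1 library. Rrp12 turned to -0.21 with the neutrophil covariate and -0.26 with WT replicate 3 alone, and ran from -0.034 to 0.30 without 1 library. Nolc1 turned to -0.15 and -0.074 in the same 2 fits. The causes were not tested. Counts of the 42 genes ran from 356 to 50783 per library, and the number of libraries, 3 per group, also limits the precision.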
